A study of Mus musculus with 24 samples.

Results

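The libraries described here compare NIH 3T3 cells that express full-length TFE3 with NIH 3T3 cells that carry the empty vector (EV), after both had been confluent for 48 h. All libraries with these labels were used, 3 of TFE3 and 3 of EV, which make 6 of the 24 NIH 3T3 libraries. NIH 3T3 is an immortalized line of mouse embryonic fibroblasts. The study behind them asked how the fusion proteins of a vascular sarcoma, epithelioid hemangioendothelioma, change transcription, and full-length TFE3 served as the control for the fusion protein YAP-TFE3. Double Flag-tagged TFE3, or the same retroviral vector without an insert, was introduced by transduction, and pools of G418-resistant cells were collected, so no line was a single clone. By the study's methods each replicate came from its own transduction. Both groups therefore shared the vector, the drug selection and the density, and differed in the insert. RNA was measured by stranded RNA-Seq of polyadenylated transcripts.

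TFE3 belongs with MITF, TFEB and TFEC to the MiT/TFE family of basic helix-loop-helix leucine zipper factors. These factors bind as dimers to E-boxes, short palindromes in promoters, and in many cell types they raise genes of the lysosome and of autophagy when nutrients are scarce. The kinase mTORC1 keeps them in the cytoplasm in fed cells, through RagC and RagD, a pair of lysosomal GTPases that the folliculin complex acts on. In melanocytes and osteoclasts the family also drives pigment and bone-resorption genes.

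Counts in the TFE3 libraries summed to between 21414273 and 27158220 and in the EV libraries to between 19981310 and 22419096. Mitochondrial genes took 4.69 to 5.87% of the counts in TFE3 and 3.80 to 4.10% in EV, and 1 of the 23 mitochondrial genes tested passed the test as a rise. The part of this difference in the results below was not tested. EV replicate 2 stood apart from the other EV libraries. Its counts differed from those of replicates 1 and 3 with chi-square values of 35.5 and 25.01 per degree of freedom, against 6.93 between replicates 1 and 3 and 5.91 to 10.7 among the TFE3 libraries. Results that rest on EV replicate 2 are therefore also given without it. All 15 fibroblast markers were detected in both groups, with summed levels of 33815 to 37951 CPM in TFE3 and 40260 to 44078 CPM in EV, and none of them passed the test. Their log2 fold changes (TFE3 minus EV) lay below zero for 14 of the 15, with a median of -0.32, against 7713 of all 14361 genes tested. With only the 6 libraries in the fit, 5 of the 15 passed as falls and none as a rise, where 4.4% of all genes tested passed as falls. CPM here stands for counts scaled to a common library size after TMM.

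The count of the endogenous gene was not raised. Tfe3 (ENSMUSG00000000134, chrX:7762560-7775202, GRCm38 as for all coordinates) had 74.1, 74.4 and 68.1 CPM in the TFE3 libraries against 84.6, 93.2 and 89.2 CPM in the EV libraries, a log2 fold change that missed the threshold (log2 fold change -0.30, standard error 0.14, adjusted p = 0.308, edgeR). Every TFE3 library lay below every EV library, and with only the 6 libraries in the fit the difference passed as a fall (adjusted p = 0.0267, edgeR). The species of the expressed sequence is not given in the sources used here, so reads of the construct may not have been counted at the mouse gene, and this count is no check of the construct. The other family members tested, Mitf, Tfeb and Tfec, did not pass the test. Mitf had 42.4 to 46.2 CPM in TFE3 and 50.1 to 55.1 CPM in EV, Tfeb stayed between 5.30 and 6.50 CPM in both groups, and Tfec was at or below 0.139 CPM in all 6 libraries.

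At a false discovery rate of 5%, 485 of the 14361 genes tested (3.38%) differed between TFE3 and EV by edgeR's quasi-likelihood test. A gene is said here to have risen or fallen only where it passed this test. In TFE3, 339 genes rose (2.36% of those tested) and 146 fell (1.02%). The changes were mostly small, with a median log2 fold change of 0.71 among the rises and -0.71 among the falls, and 139 genes changed by at least 1 on the log2 scale, 105 of them upward. Of the 485 genes, 483 had all TFE3 libraries on one side of all EV libraries, as did 15% of all genes tested upward and 16% downward. An unadjusted p under 0.05 was reached by 2055 genes, and DESeq2 called 703. A fit with only the 6 libraries called 1525 of 13939 genes (10.9%), 6.54% upward and 4.4% downward, with 466 of the 485 among them. Without EV replicate 2 the test called 283 genes (1.97%), 193 rises (1.34%) and 90 falls (0.627%), and it called 180 of the 339 rises and 60 of the 146 falls again. Leaving out any one of the 6 libraries left 192 to 286 calls, so a call lost without EV replicate 2 does not by itself show that the change rests on that library.

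**Figure D1:**
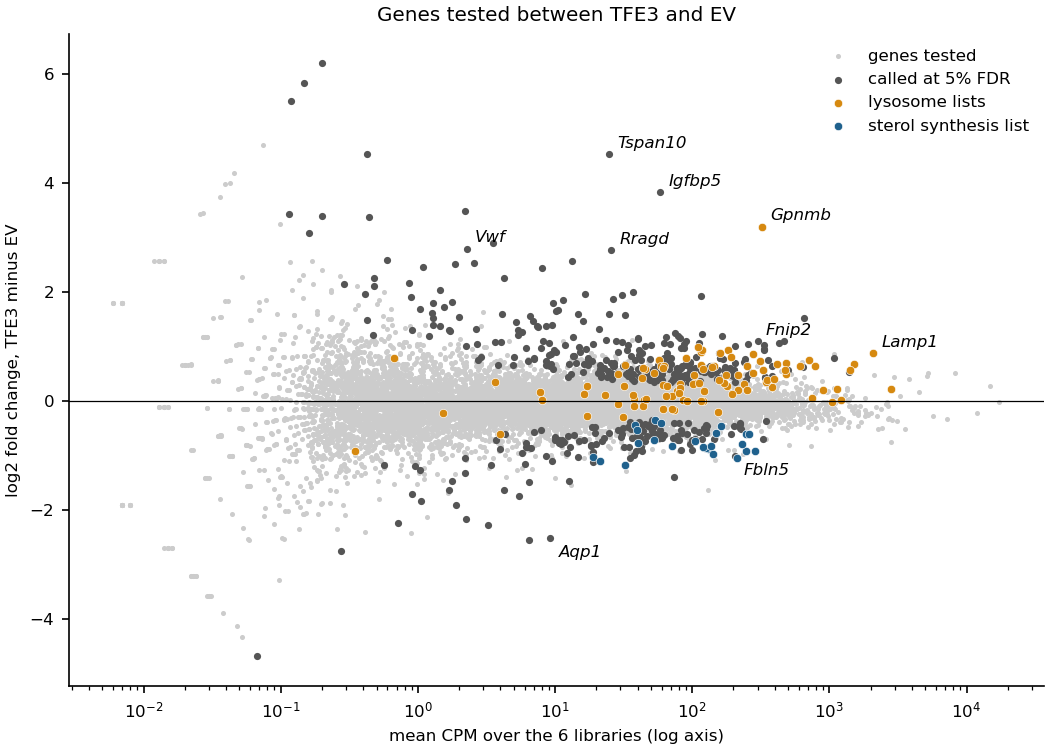
Log2 fold change between TFE3 and EV for each gene tested (vertical axis) against its mean CPM over the 6 libraries (horizontal axis, logarithmic). Grey points are genes tested, dark points genes called at a false discovery rate of 5%, orange points the lysosome lists and blue points the sterol synthesis list, with genes at 0 in all 6 libraries left out; none of the lysosome genes that were called fell, and all sterol synthesis genes lie below zero.

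Folliculin, the Rag GTPases and mTORC1 hold MiT/TFE factors in check. Of 20 genes tested in this list, 5 rose and none fell (2.36% of all genes tested rose), with a median log2 fold change of 0.12 against -0.02 over all genes tested. Rragd (ENSMUSG00000028278, chr4:32983037-33022180) encodes RagD, one of the GTPases that bring MiT/TFE factors to the lysosome for phosphorylation. It had 39.02, 46.04 and 49.8 CPM in the TFE3 libraries against 7.30, 5.06 and 7.43 CPM in the EV libraries (log2 fold change 2.77, standard error 0.22, adjusted p = 1.99e-07, edgeR) and every TFE3 library lay far above every EV library. Fnip2, a folliculin partner, had 439, 392 and 395 CPM in the TFE3 libraries against 195, 192 and 184 CPM in the EV libraries (log2 fold change 1.10, standard error 0.15, adjusted p = 9.81e-05, edgeR). The groups lay far apart, and the fold was 2.15.

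The remaining calls in this list were smaller. Rragc, which encodes RagC, had 476, 428 and 487 CPM in the TFE3 libraries against 292, 299 and 306 CPM in the EV libraries (log2 fold change 0.63, standard error 0.14, adjusted p = 0.0123, edgeR). Fnip1, the paralog of Fnip2, rose by 0.58 in log2 units (standard error 0.14, adjusted p = 0.0207, edgeR), and Tsc1, a subunit of the complex that restrains mTORC1, rose from 107 ± 8.11 to 167 ± 3.56 CPM (SD, n = 3, adjusted p = 0.00601, edgeR). Flcn itself, which encodes folliculin, had 134, 124 and 118 CPM in TFE3 and 100.4, 88.4 and 102 CPM in EV. Its groups did not overlap, but it missed the threshold (adjusted p = 0.316, edgeR) and passed it only when the fit held the 6 libraries alone (adjusted p = 0.0141, edgeR). Rragd overlaps a gene on the opposite strand, as do Fnip2 and Rragc, and the use of strand in the counting is not given in the sources used here.

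A list of 30 tested genes that general knowledge names as direct targets of TFE3 or its relatives held 10 rises and no falls. Of all genes tested 2.36% rose and 1.02% fell. The list had a median log2 fold change of 0.40. With only the 6 libraries in the fit, 17 of 29 rose and none fell (6.54% of all genes tested in that fit rose). Binding of TFE3 was not measured in these libraries, so the list describes known targets and not targets shown here. Gpnmb (ENSMUSG00000029816, chr6:49036546-49070929), a transmembrane glycoprotein of lysosomes and melanosomes and a common marker of MiT/TFE activity, led the list with 524, 669 and 563 CPM in the TFE3 libraries against 71.2, 51.9 and 67.7 CPM in the EV libraries (log2 fold change 3.20, standard error 0.26, adjusted p = 1.99e-07, edgeR). The means were 9.20-fold apart, and no TFE3 library came near an EV library. Hk2, the hexokinase that starts glycolysis, had 168, 145 and 137 CPM in the TFE3 libraries against 69.95, 67.6 and 79.2 CPM in the EV libraries (adjusted p = 0.000118, edgeR), again without overlap. The other rises were Mcoln1, Gla, Atp6v1h, Neu1 and folliculin and Rag genes named above. The lists share members, so their counts are not separate. Gpnmb, Mcoln1, Gla, Atp6v1h and Neu1 count again in the lysosome lists below, and Hk2 in the glycolysis list.

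Not every known target moved. Map1lc3b, which encodes the autophagosome protein LC3B, had 275 ± 12.2 CPM (SD, n = 3) in EV and 287 ± 12.9 CPM in TFE3 (adjusted p = 0.927, edgeR). Sqstm1, the autophagy receptor p62, had 623 ± 82.3 CPM in EV and 706 ± 14.2 CPM in TFE3 (adjusted p = 0.732, edgeR). Ctsd and Hexa, a pair of lysosomal enzymes, lay higher in every TFE3 library than in every EV library, yet missed the threshold (adjusted p = 0.124 and 0.0703, edgeR) and passed with the 6 libraries alone (adjusted p = 0.00208 and 0.000629).

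The 3 lysosome lists together had 97 genes tested, of which 32 rose and none fell, 84 lay above zero and the median log2 fold change was 0.32. By comparison, 2.36% of all genes tested rose, and 6604 of the 14361 lay above zero. In the fit with the 6 libraries alone 52 of the 97 rose, where 6.54% of all genes tested did. Without EV replicate 2 the count was 19, where 1.34% of all genes tested rose, within the 14 to 20 that leaving out any one library gave. Most changes were under 1 on the log2 scale, and Gpnmb was the exception.

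Among membrane proteins of the lysosome 13 of 34 genes rose. Lamp1 (ENSMUSG00000031447, chr8:13159161-13175338), the most abundant of the named rises, coats the inner face of the lysosomal membrane. It had 2684, 2619.9 and 2838 CPM in the TFE3 libraries against 1458, 1524 and 1452 CPM in the EV libraries (log2 fold change 0.88, standard error 0.16, adjusted p = 0.00321, edgeR). Mcoln1 (ENSMUSG00000004567, chr8:3500457-3515232), the calcium channel through which lysosomes signal to TFEB and TFE3, had 149.9, 144 and 148 CPM in the TFE3 libraries against 73.5, 74.01 and 74.95 CPM in the EV libraries (log2 fold change 0.99, standard error 0.13, adjusted p = 8.47e-05, edgeR). Both genes showed very little spread inside either group, and no library of one group reached the other.

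Transporters rose as well. Ctns, the cystine exporter that is defective in cystinosis, had 162, 148 and 151 CPM in the TFE3 libraries against 84.3, 73.5 and 84.4 CPM in the EV libraries (log2 fold change 0.93, standard error 0.13, adjusted p = 0.000164, edgeR). Npc1, which exports cholesterol from the lysosome, had 149.8, 149 and 151 CPM in the TFE3 libraries against 82.4, 79.8 and 80.4 CPM in the EV libraries (log2 fold change 0.89, standard error 0.16, adjusted p = 0.00244, edgeR) and overlaps the gene Rmc1 on the opposite strand. Slc36a1, Slc17a5, Spns1 and Clcn7, which carry amino acids, sialic acid, lysophospholipids and chloride, rose by 0.60 to 0.65. Igf2r, the receptor that sorts new hydrolases to lysosomes, rose by 0.57 on the log2 scale.

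Of the hydrolases 13 of 44 rose. Naglu, which degrades heparan sulfate, had 236, 261 and 222 CPM in the TFE3 libraries against 119, 132 and 124 CPM in the EV libraries (log2 fold change 0.94, standard error 0.17, adjusted p = 0.00289, edgeR). Gla, the alpha-galactosidase lost in Fabry disease, had 385, 340.4 and 350.0 CPM in the TFE3 libraries against 182, 208 and 201 CPM in the EV libraries (log2 fold change 0.86, standard error 0.18, adjusted p = 0.00808, edgeR). Dnase2a, which degrades DNA in lysosomes, had 73.1, 73.7 and 67.1 CPM in the TFE3 libraries against 42.9, 40.6 and 43.4 CPM in the EV libraries (log2 fold change 0.75, standard error 0.11, adjusted p = 0.000164, edgeR). None of the TFE3 libraries fell within the EV range for these genes. The cathepsins Ctsa and Ctsb, and Gaa, Neu1, Man2b1, Galc, Scpep1 and Plbd2 rose by 0.50 to 0.78. Ctsb overlaps Fdft1 on the opposite strand, and the first of these rose while the second fell.

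The V-ATPase is the proton pump that acidifies lysosomes, and 6 of its 19 genes rose, with a median log2 fold change of 0.39. Atp6v1c1, which encodes the C subunit of the soluble V1 sector, had 214, 189 and 214 CPM in the TFE3 libraries against 105, 123 and 109 CPM in the EV libraries (log2 fold change 0.87, standard error 0.14, adjusted p = 0.000757, edgeR). Atp6v1h, the regulatory H subunit, rose by 0.81 (adjusted p = 0.00171, edgeR), and Atp6v0d1, Atp6v1a, Atp6v0b and Atp6v1d rose by 0.59 to 0.74.

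Promoter sequence was set beside these rises, since MiT/TFE factors bind the E-box CACGTG. Windows from 250 bases before to 50 bases after the start of transcription were taken from RefSeq (GRCm38.p6). CACGTG reads the same on both strands, and 7.15% of all 32851 windows held it. Counted by gene, it was in a window of 11.5% of the 10201 genes tested that had one. The longer palindrome TCACGTGA, which contains CACGTG, was in 0.974% of all windows and in 2.24% of these genes. The related letters CATGTG, on either strand, were in 14.2% of all windows and in 10.5% of these genes. The 120 bases before the start are shown for 5 genes of the lysosome and Rag groups that rose and held CACGTG there, and for Tspan10, the largest rise. Capitals mark these E-boxes, and the one of Tspan10 is CATGTG on the opposite strand.
Lamp1 (chr8:13159041-13159160, plus strand): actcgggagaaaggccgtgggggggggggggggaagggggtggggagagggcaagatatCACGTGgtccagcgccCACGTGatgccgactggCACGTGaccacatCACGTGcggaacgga
Mcoln1 (chr8:3500399-3500518, plus strand): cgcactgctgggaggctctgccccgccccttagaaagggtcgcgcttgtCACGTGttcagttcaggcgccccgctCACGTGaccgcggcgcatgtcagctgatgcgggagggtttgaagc
Atp6v0b (chr4:117887330-117887449, minus strand): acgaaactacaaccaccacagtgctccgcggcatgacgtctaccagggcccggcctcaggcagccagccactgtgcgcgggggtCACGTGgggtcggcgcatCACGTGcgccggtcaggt
Fnip1 (chr11:54438059-54438178, plus strand): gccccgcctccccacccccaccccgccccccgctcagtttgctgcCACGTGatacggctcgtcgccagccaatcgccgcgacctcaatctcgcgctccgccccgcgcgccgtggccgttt
Rragc (chr4:123917313-123917432, plus strand): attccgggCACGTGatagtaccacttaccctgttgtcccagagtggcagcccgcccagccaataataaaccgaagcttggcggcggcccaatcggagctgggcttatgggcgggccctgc
Tspan10 (chr11:120442511-120442630, plus strand): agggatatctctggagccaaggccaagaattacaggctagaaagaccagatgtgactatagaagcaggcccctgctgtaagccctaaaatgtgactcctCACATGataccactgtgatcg

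The Lamp1 stretch held 4 matches, those of Mcoln1 and Atp6v0b 2 each, and those of Fnip1 and Rragc 1. Of the 10 rises in the list of known targets 9 had a window and 4 of these (44.4%) held CACGTG. Of the 20 targets that were not called 16 had one and 5 of these (31.2%) held it. Among the 24 lysosomal rises with a window 12 held CACGTG, but these were 75% of the lysosomal rises and the windows covered 71.0% of all genes tested, under the 80% needed, so a comparison of these shares is void. The windows of Gpnmb, Rragd, Fnip2 and Flcn held no E-box of either kind. A match is a stretch of letters and does not show that TFE3 was bound, and a window without one leaves the rest of the gene unsearched.

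Of 47 autophagy genes tested, 2 rose and 1 fell, against 2.36 and 1.02% of all genes tested, with a median log2 fold change of 0.04. Optn encodes optineurin, a receptor for the autophagy of mitochondria and bacteria. It had 15.7, 15.8 and 14.9 CPM in the TFE3 libraries against 5.11, 4.49 and 5.18 CPM in the EV libraries (log2 fold change 1.65, standard error 0.21, adjusted p = 4.43e-05, edgeR), so that the groups were 3.14-fold apart with little spread within them. Atg3, an enzyme that attaches lipid to LC3, rose by 0.48 (adjusted p = 0.0276, edgeR). Wdr45, which binds the forming autophagosome, fell by 0.49 in log2 units (adjusted p = 0.0434, edgeR). Atg3 and Wdr45 each lost their call when any library other than EV replicate 2 was left out.

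**Figure D2:**
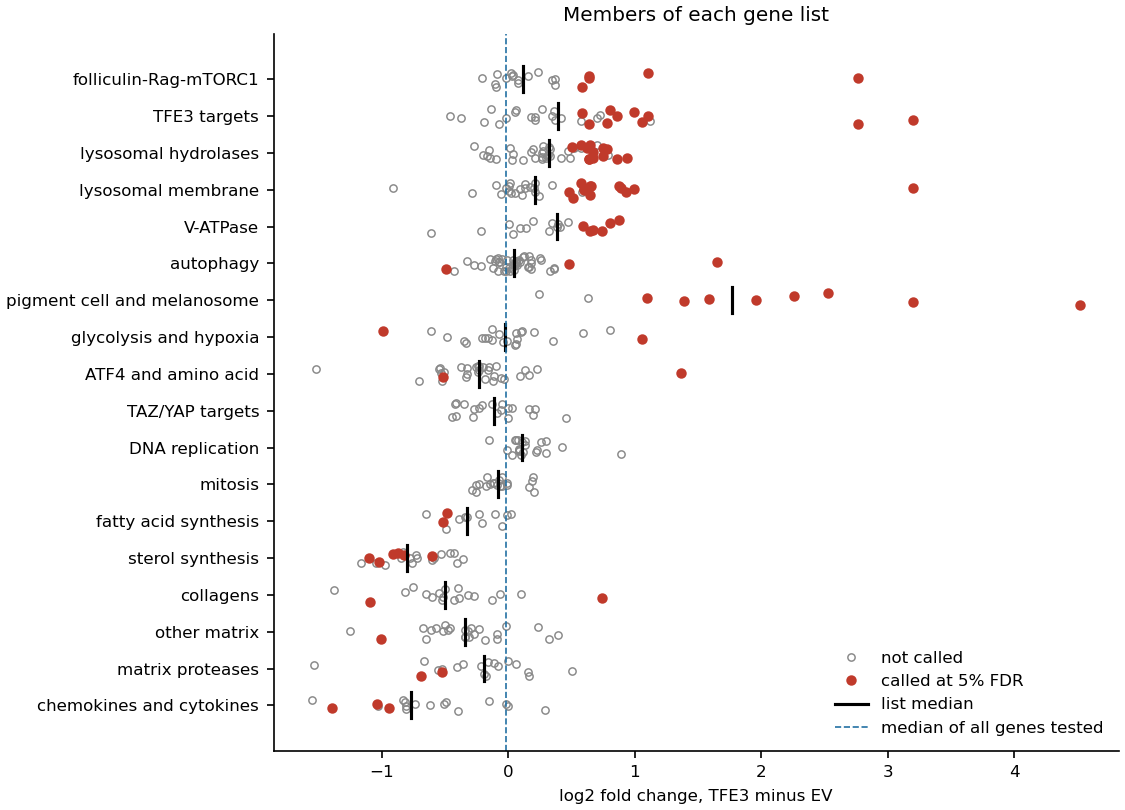
Log2 fold change between TFE3 and EV (horizontal axis) of every tested gene of 18 lists (vertical axis). Filled points were called at a false discovery rate of 5%, open points were not, black bars are list medians and the dashed line is the median of all genes tested, -0.02; called lysosomal, V-ATPase, Rag and pigment genes lie to the right, and called sterol and chemokine genes to the left.

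Several of the largest rises were of genes known from pigment cells. Named genes were the 15 rises and 15 falls with the largest log2 fold change among called genes that averaged 50 counts or more in the 6 libraries and had no overlap between groups, which 306 rises and 133 falls met. Tspan10 (ENSMUSG00000039691, chr11:120442644-120446950), a tetraspanin active in the pigmented eye, had 43.6, 51.7 and 46.2 CPM in the TFE3 libraries against 1.73, 3.29 and 1.15 CPM in the EV libraries (log2 fold change 4.53, standard error 0.41, adjusted p = 4.03e-06, edgeR), a 23.0-fold rise. Pmel, the fibril protein of melanosomes, had 4.16, 4.26 and 4.60 CPM in the TFE3 libraries against 0.633, 1.00 and 0.619 CPM in the EV libraries (log2 fold change 2.53, standard error 0.28, adjusted p = 9.21e-06, edgeR). Rab27a, the GTPase that ties melanosomes and other secretory granules to actin, had 24.4, 25.2 and 28.9 CPM in the TFE3 libraries against 6.84, 6.83 and 6.59 CPM in the EV libraries (log2 fold change 1.96, standard error 0.24, adjusted p = 3.77e-05, edgeR). The lowest TFE3 library was far above the highest EV library for each of them.

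A wider look at pigment genes used a list that was drawn up after these values were seen, so its counts are a description only. Of its 23 members 10 had enough counts to be tested, and 8 of these rose: Tspan10, Gpnmb, Pmel, Mreg, Rab27a, Mlana, Sytl2 and Myo5a. By comparison, 2.36% of all genes tested rose. In each fit that left out 1 library 6 of the list were called. Where every library had to hold at least 10 counts, a filter that removes genes, 3 were called. Mreg, which takes part in melanosome transfer, had 6.71, 7.09 and 7.18 CPM in the TFE3 libraries against 1.01, 2.34 and 1.06 CPM in the EV libraries, where EV replicate 2 was the highest EV library. Myo5a, the motor that carries melanosomes, rose from 298 ± 13.5 to 637 ± 27.6 CPM (SD, n = 3), and Mlana, a melanosomal antigen, from 7.38 ± 0.657 to 22.2 ± 2.05 CPM (SD, n = 3). DESeq2 did not call Mlana (adjusted p = 0.0719), nor did edgeR with any one library left out. Several defining genes of pigment cells were not seen: Tyr, Slc45a2 and Gpr143 had 0 counts in every library of both groups, and so had the receptors Kit and Ednrb. Dct, Trpm1 and Sox10 had 0 counts in every EV library but not in every TFE3 library, and Mlph the reverse. The summed level of the list, most of it Gpnmb and Myo5a, was 1298 to 1499.9 CPM in TFE3 and 427 to 431 CPM in EV.

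Igfbp5 (ENSMUSG00000026185, chr1:72857932-72874884), a binding protein for insulin-like growth factors, had 93.02, 129.9 and 105 CPM in the TFE3 libraries against 4.35, 12.3 and 6.42 CPM in the EV libraries (log2 fold change 3.83, standard error 0.37, adjusted p = 2.46e-06, edgeR), a 14.2-fold rise. Agt, the precursor of angiotensin, had 19.7, 27.7 and 21.2 CPM in the TFE3 libraries against 3.80, 4.44 and 3.27 CPM in the EV libraries (log2 fold change 2.57, standard error 0.33, adjusted p = 6.86e-05, edgeR). Ptgds, which makes prostaglandin D2, had 12.7, 17.4 and 10.5 CPM in the TFE3 libraries against 2.41, 2.63 and 2.43 CPM in the EV libraries (log2 fold change 2.44, standard error 0.29, adjusted p = 3.47e-05, edgeR). The groups were well separated for each of the 3 genes.

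Rnf43, a ubiquitin ligase that removes Wnt receptors from the cell surface, had 5.28, 5.91 and 7.39 CPM in the TFE3 libraries against 1.05, 0.812 and 0.619 CPM in the EV libraries (log2 fold change 2.89, standard error 0.28, adjusted p = 2.46e-06, edgeR). Mep1a, a membrane metalloprotease, had 3.75, 4.22 and 4.15 CPM in the TFE3 libraries against 0.591, 0.191 and 0.265 CPM in the EV libraries (log2 fold change 3.49, standard error 0.52, adjusted p = 0.000329, edgeR). Both were near 1 CPM or below it in EV and rose above 3 CPM in every TFE3 library. Peg3, an imprinted zinc finger gene, was abundant in both groups, with 181, 177 and 192 CPM in the TFE3 libraries against 42.6, 61.4 and 41.1 CPM in the EV libraries (log2 fold change 1.92, standard error 0.19, adjusted p = 2.46e-06, edgeR). Trim63, the ubiquitin ligase MuRF1 of muscle atrophy, had 47.4, 49.97 and 48.99 CPM in the TFE3 libraries against 15.2, 7.21 and 15.4 CPM in the EV libraries (log2 fold change 1.95, standard error 0.38, adjusted p = 0.00499, edgeR), and EV replicate 2 was the lowest EV library. The 7 muscle markers, which do not include Trim63, summed to 0.070 to 0.268 CPM in TFE3 and 0.191 to 0.338 CPM in EV.

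Vwf, the von Willebrand factor of endothelial cells and platelets, had 3.98, 4.30 and 3.63 CPM in the TFE3 libraries against 0.633, 0.668 and 0.398 CPM in the EV libraries (log2 fold change 2.80, standard error 0.51, adjusted p = 0.00289, edgeR). Kdr, the endothelial receptor for VEGF, rose too but was below the count limit for the named genes, with 0.626, 0.802 and 1.01 CPM in TFE3 and 0, 0.048 and 0.177 CPM in EV (adjusted p = 0.00179, edgeR). Of 9 endothelial markers 4 could be tested and these 2 rose, against 2.36% of all genes tested. The other 2 lay below zero, 1 of them with every TFE3 library below every EV library. With only the 6 libraries in the fit, 3 markers could be tested, of which 2 rose and 1 fell. The summed level of the 9 markers, Vwf and Kdr included, was 6.17 to 7.09 CPM in TFE3 and 3.15 to 5.04 CPM in EV. The defining markers Cdh5, Tie1 and Cldn5 had 0 counts in the TFE3 libraries.

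**Figure D3:**
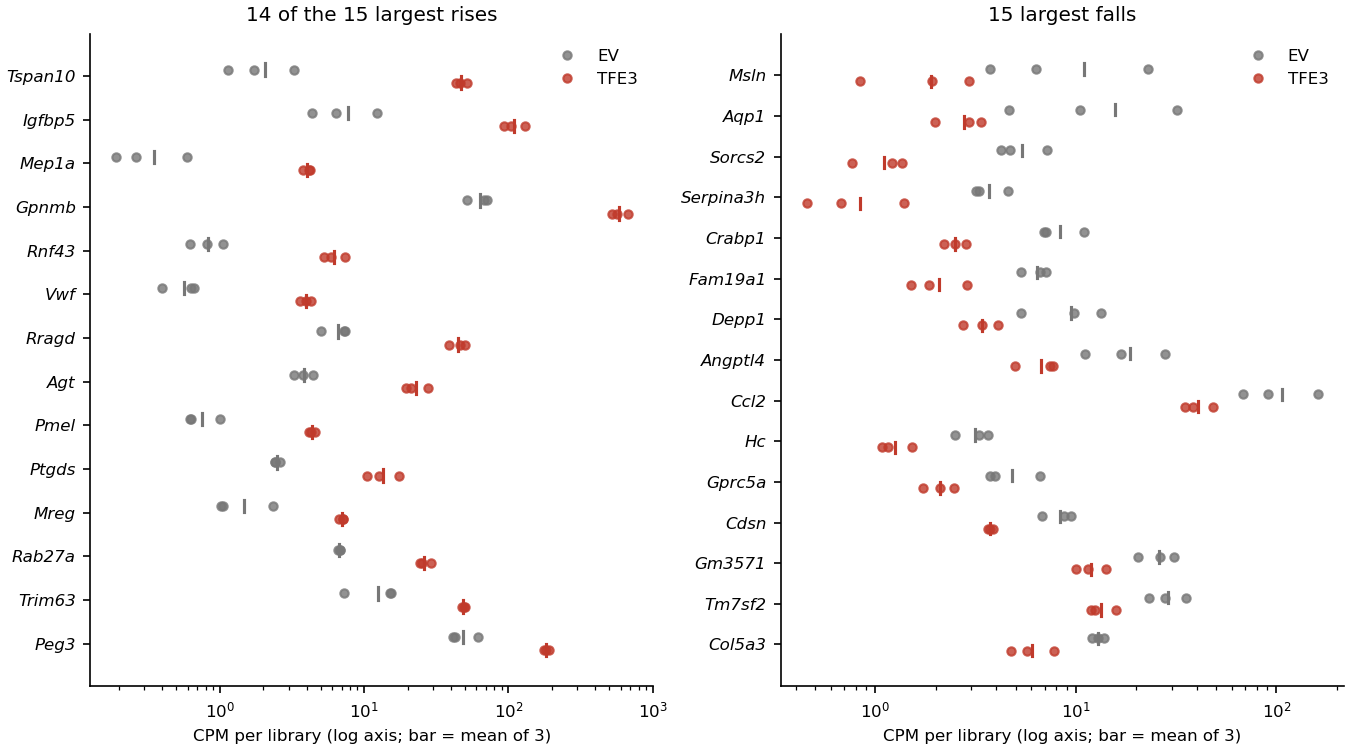
CPM in each library (horizontal axis, logarithmic) of 14 of the 15 largest rises (left) and the 15 largest falls (right), with EV in grey and TFE3 in red; points are libraries and bars are means of 3. No TFE3 library overlaps an EV library for these genes, which the rule required, and the EV points of Msln, Aqp1 and Ccl2 spread more than those of the other falls.

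The largest falls were smaller than the largest rises. Msln (ENSMUSG00000063011, chr17:25748613-25754378), mesothelin, had 1.92, 2.91 and 0.837 CPM in the TFE3 libraries against 3.71, 22.97 and 6.33 CPM in the EV libraries (log2 fold change -2.56, standard error 0.55, adjusted p = 0.0103, edgeR). Aqp1, a water channel, had 3.35, 2.91 and 1.99 CPM in the TFE3 libraries against 10.5, 31.8 and 4.65 CPM in the EV libraries (log2 fold change -2.51, standard error 0.52, adjusted p = 0.00699, edgeR). EV replicate 2 was the highest library in both, and without it neither passed the test, at log2 fold changes of -1.43 and -1.47 (adjusted p = 0.132 and 0.0839, edgeR). They also missed the threshold without TFE3 replicate 3.

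The falls of Sorcs2, Crabp1 and Fbln5 passed the test with any one library left out. Sorcs2, a sorting receptor of neurons, had 1.21, 1.35 and 0.767 CPM in the TFE3 libraries against 4.22, 7.21 and 4.69 CPM in the EV libraries (log2 fold change -2.28, standard error 0.31, adjusted p = 0.000105, edgeR) and kept a log2 fold change of -2.02 without it (adjusted p = 0.00121, edgeR). Crabp1, which binds retinoic acid in the cytoplasm, had 2.82, 2.49 and 2.20 CPM in the TFE3 libraries against 7.09, 10.98 and 6.95 CPM in the EV libraries (log2 fold change -1.74, standard error 0.27, adjusted p = 0.000521, edgeR), and without EV replicate 2 it had -1.49 (adjusted p = 0.00529, edgeR). Fbln5 (ENSMUSG00000021186, chr12:101746565-101819055), a fibulin of elastic fibers, was the most abundant of these, with 148, 131 and 130.1 CPM in the TFE3 libraries against 262, 289 and 271 CPM in the EV libraries (log2 fold change -1.01, standard error 0.16, adjusted p = 0.000521, edgeR). The groups were well apart for all 3 genes.

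Among the remaining large falls, Angptl4, an inhibitor of lipoprotein lipase, and Gprc5a, a retinoic acid-induced receptor, had log2 fold changes of -1.48 and -1.17, and without EV replicate 2 of -1.06 and -0.86, which missed the threshold (adjusted p = 0.059 and 0.153, edgeR). Hc, which encodes complement C5, had -1.33 and without that library -1.47, a larger fall that also missed it (adjusted p = 0.0573, edgeR). Hc missed the threshold as well without EV replicate 1, EV replicate 3 or TFE3 replicate 1 (adjusted p = 0.161, 0.139 and 0.173, edgeR). Angptl4 missed it as well without TFE3 replicate 3 (adjusted p = 0.0618, edgeR). Fam19a1, Depp1, Cdsn and Serpina3h passed without EV replicate 2 (adjusted p = 0.0408, 0.019, 0.033 and 0.0414, edgeR). Each of these lost its call without EV replicate 1 and without TFE3 replicate 2 or 3, with adjusted p of up to 0.16, 0.208, 0.109 and 0.147 over the libraries left out. Serpina3h belongs to a cluster of near-identical genes, so reads may have been split between copies. Gm3571, a gene without a known role, and Col5a3, a minor collagen chain, had -1.13 and -1.10. Without EV replicate 2 they had -0.98 and -1.04 and did not pass (adjusted p = 0.109 and 0.0957, edgeR).

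All 24 genes of cholesterol synthesis that were tested lay below zero, against 7713 of all 14361 genes tested. The 24 genes had a median log2 fold change of -0.80. Of these 6 fell, against 1.02% of all genes tested, Tm7sf2, Pmvk, Cyp51, Fdft1 and Srebf2 among them. Srebf2 (ENSMUSG00000022463, chr15:82147181-82205379) encodes SREBP-2, the factor that drives this pathway, and it had 232, 198 and 187 CPM in the TFE3 libraries against 287, 329 and 321 CPM in the EV libraries (log2 fold change -0.60, standard error 0.15, adjusted p = 0.0275, edgeR). Pmvk, a kinase of the mevalonate pathway, had 14.8, 10.6 and 11.9 CPM in the TFE3 libraries against 20.6, 30.2 and 25.1 CPM in the EV libraries (log2 fold change -1.03, standard error 0.21, adjusted p = 0.007, edgeR). Tm7sf2, a sterol reductase, had 15.8, 12.5 and 11.9 CPM in the TFE3 libraries against 23.2, 35.4 and 27.9 CPM in the EV libraries (log2 fold change -1.11, standard error 0.24, adjusted p = 0.0125, edgeR).

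The spread between replicates was large for this pathway and common to its genes. TFE3 replicate 1 was the highest TFE3 library and EV replicate 1 the lowest EV library at all 24 genes. Summed over the list, the TFE3 libraries held 2740.1, 1822 and 2047 CPM and the EV libraries 2811, 4409 and 4047 CPM. The lowest EV library and the highest TFE3 library thus almost met, and the groups were apart at 14 of the 24 genes. Of all genes tested 16% had every TFE3 library below every EV library. Without EV replicate 2 only Pmvk passed, without TFE3 replicate 2 none did, and without TFE3 replicate 3 or EV replicate 3 the counts were 1 and 2. With the 6 libraries alone 15 of the 24 genes fell, where 4.4% of all genes tested did.

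**Figure D4:**
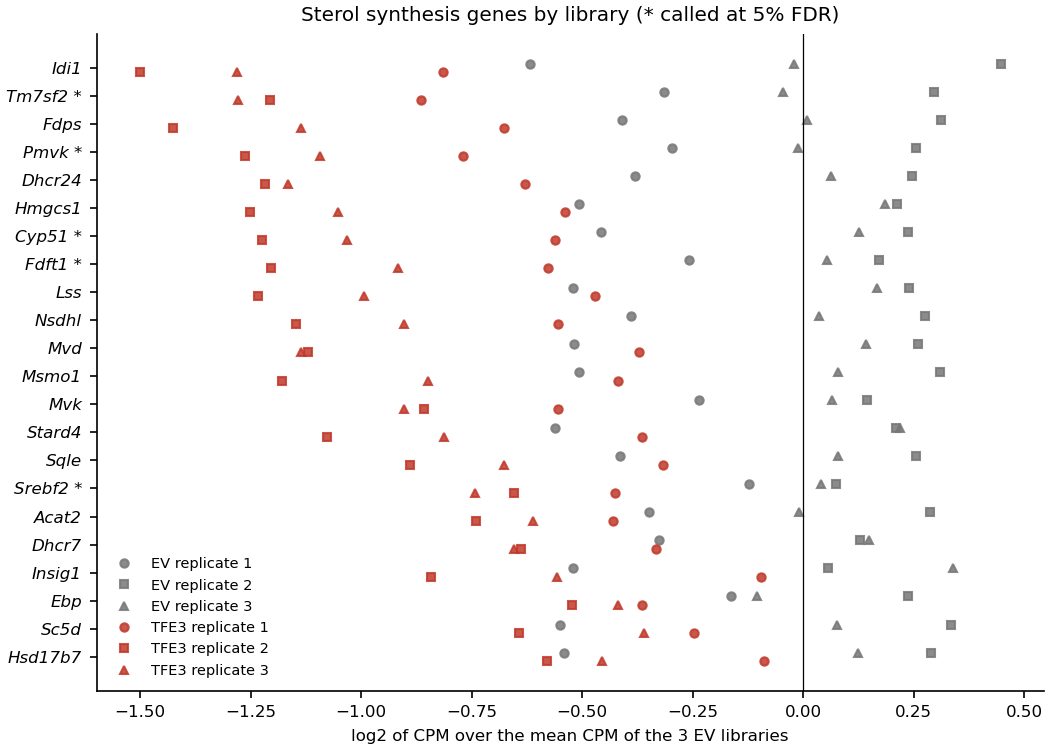
Level of 22 of the 24 sterol synthesis genes in each library (horizontal axis, log2 of CPM over the mean CPM of the 3 EV libraries), with EV in grey, TFE3 in red and the replicate by symbol. TFE3 replicate 1 and EV replicate 1 lie next to each other, and the other TFE3 and EV libraries lie far apart.

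The counts of fatty acid and matrix genes are to be read against the 2.36% of all genes tested that rose and the 1.02% that fell. Of 13 genes of fatty acid synthesis 2 fell, the desaturases Fads2 and Scd1, by 0.52 and 0.49 on the log2 scale. Neither passed without EV replicate 2 (adjusted p = 0.0984 and 0.134, edgeR), nor without TFE3 replicate 2 or TFE3 replicate 3. Of 19 collagen genes Col12a1 rose, with 66.2, 73.9 and 75.7 CPM in the TFE3 libraries against 41.7, 45.8 and 41.99 CPM in the EV libraries (log2 fold change 0.74, standard error 0.13, adjusted p = 0.0022, edgeR), and Col5a3 fell. The collagen median was -0.50, and 17 of the 19 genes lay below zero, Col5a3 being the one that passed the test. Of all 14361 genes tested 7713 lay below zero. Of 25 other matrix genes Fbln5 alone fell, but 22 of the 25 lay below zero, with a median log2 fold change of -0.34. With only the 6 libraries in the fit, 8 of the 25 fell and 1 rose, where 4.4% of all genes tested fell and 6.54% rose. Of 19 matrix proteases and inhibitors Mmp11 and Timp3 fell by 0.53 and 0.69, and 15 of the 19 lay below zero. Timp3 had 495, 285 and 442 CPM in EV and 242 to 261 CPM in TFE3, so here EV replicate 2 was the library nearest to TFE3. Neither Mmp11 nor Timp3 passed without EV replicate 3, nor with any one TFE3 library left out.

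Of 18 chemokine and cytokine genes tested 3 fell, against 1.02% of all genes tested. These were Ccl2, Ccl7 and Il34, which recruit or sustain monocytes. Of the 18 genes 16 lay below zero, against 7713 of all 14361 tested, and the list median log2 fold change was -0.77. Ccl2 had 48.4, 38.5 and 35.1 CPM in the TFE3 libraries against 68.1, 162 and 91.01 CPM in the EV libraries (log2 fold change -1.39, standard error 0.31, adjusted p = 0.0126, edgeR). EV replicate 2 was far above the other EV libraries, and without it none of the 3 passed (adjusted p = 0.104, 0.126 and 0.113, edgeR). None passed without TFE3 replicate 2 or without TFE3 replicate 3 either. No TFE3 library reached the lowest EV level of Ccl2, however.

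Several programs showed few or no calls. Over all genes tested 3.38% were called, and lists this short would hold few calls at that share. None of 20 TAZ/YAP targets, 21 DNA replication genes, 20 mitosis genes, 17 NRF2 targets or 10 genes of fat storage passed the test. With only the 6 libraries in the fit, 3 TAZ/YAP targets fell, and 2 NRF2 targets rose and 1 fell. In that fit 1 DNA replication gene rose, 1 fat storage gene rose and 1 fell, and no mitosis gene passed. Of all genes tested there, 6.54% rose and 4.4% fell. Of 22 interferon and antigen presentation genes Mx2 rose, from 0.525 to 1.31 CPM in EV to 2.19 to 3.59 CPM in TFE3, and it lost its call without EV replicate 2 (adjusted p = 0.126, edgeR). Mx2 also lost it without EV replicate 3, TFE3 replicate 2 or TFE3 replicate 3. Of 31 ATF4 and amino acid genes Atf3, an early stress factor, rose, with 11.7, 13.04 and 12.2 CPM in the TFE3 libraries against 5.32, 3.92 and 5.04 CPM in the EV libraries (log2 fold change 1.37, standard error 0.18, adjusted p = 9e-05, edgeR). Atf5 fell by 0.52 on the log2 scale, but without EV replicate 2 no gene of this list fell. Leaving out any library other than EV replicate 1 left 1 call in the list. Of 24 glycolysis and hypoxia genes Hk2 rose and Adm, adrenomedullin, fell, and Adm lost its call without EV replicate 2, TFE3 replicate 2 or TFE3 replicate 3. Of 27 TGF-beta and BMP genes the receptor Tgfbr2 fell, from 231 ± 24.04 to 152 ± 7.91 CPM (SD, n = 3, adjusted p = 0.0354, edgeR), and it did not pass without EV replicate 2 (adjusted p = 0.136, edgeR). Nor did Tgfbr2 pass without EV replicate 3 or with any one TFE3 library left out.

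The fusion protein YAP-TFE3 carries the C terminal part of TFE3 with its DNA-binding domain behind the start of YAP. Its 3 libraries, also from NIH 3T3 cells confluent for 48 h, were therefore compared directly with those of TFE3. The named genes were chosen for their difference between TFE3 and EV, and the TFE3 libraries enter both comparisons. Of the 15 largest rises 12 were higher in TFE3 than in YAP-TFE3 (8.62% of all genes tested were), and none was lower. Of the 15 largest falls 8 were lower in TFE3 (14.3% of all genes tested were). Both proteins have EV as their control, and the values against EV are therefore given side by side only.

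Some of the rises stood far higher in TFE3 than with the fusion protein. Gpnmb had 9.98, 14.7 and 27.0 CPM in the YAP-TFE3 libraries, below every EV library, and the direct difference was 5.08 in log2 units (adjusted p = 8.67e-11, edgeR). Tspan10 had 0.050, 0.167 and 0.467 CPM there and Rab27a 2.96, 2.71 and 3.91 CPM, also below every EV library. Rragd had 13.5, 8.40 and 9.21 CPM, above EV and far under its TFE3 level (2.12, adjusted p = 2.26e-07, edgeR). Peg3 had 30.7, 37.0 and 38.2 CPM, below every EV library.

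For other rises no difference between the proteins was detected. Vwf had 8.62, 9.85 and 5.18 CPM in YAP-TFE3, all above the TFE3 libraries, with a direct difference of -0.99 (standard error 0.41, adjusted p = 0.0918, edgeR). Mreg (-0.07, standard error 0.36, adjusted p = 0.918), Trim63 (0.12, standard error 0.36, adjusted p = 0.865) and Optn (0.15, standard error 0.20, adjusted p = 0.649, edgeR) had like levels with both proteins. A p above the threshold does not show that the levels were equal.

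Of the 97 lysosomal genes 35 were higher and 5 lower in TFE3 than in YAP-TFE3 (8.62 and 14.3% of all genes tested were), with a median difference of 0.27 against -0.02 over all genes tested, and 11 of 19 V-ATPase genes were higher. Gla had 96.6, 99.99 and 137 CPM in YAP-TFE3, less than in any TFE3 or EV library. Npc1 had 159, 132 and 126 CPM there, overlapping its TFE3 level, and the direct difference was 0.11 (adjusted p = 0.685, edgeR). Of 24 sterol genes 1 was higher and 1 lower in TFE3, with a median difference of 0.04. Against EV, 18 of them fell in YAP-TFE3 (4.74% of all genes tested did) and 6 in TFE3 (1.02%), with medians of -0.88 and -0.80.

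Of 19 collagen genes 12 were lower in TFE3 than in YAP-TFE3 and none was higher, where 14.3% of all genes tested were lower and 8.62% higher. Of 20 TAZ/YAP targets 14 were lower and 2 higher. Fbln5 had 446, 327 and 386 CPM in YAP-TFE3, above every EV library, and differed from TFE3 by -1.50 in log2 units (adjusted p = 3.83e-07, edgeR). Gprc5a had 12.3, 8.84 and 10.1 CPM there against 1.73 to 2.48 CPM in TFE3.

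**Figure D5:**
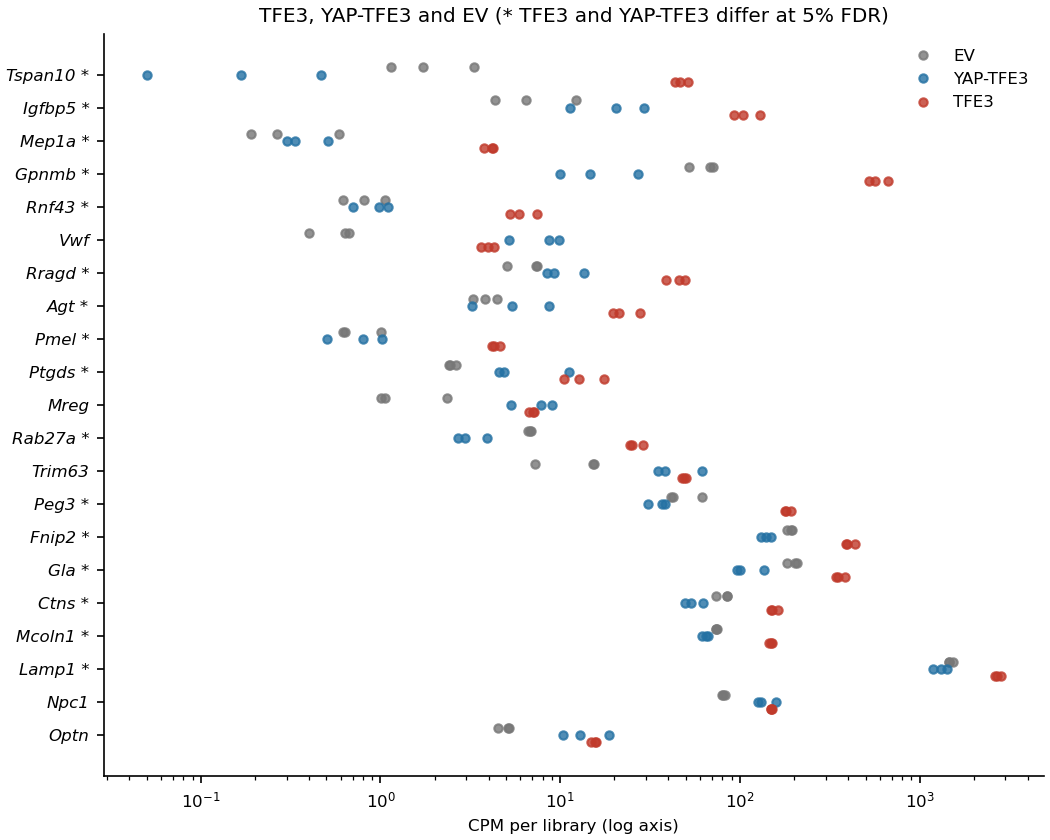
CPM in each library (horizontal axis, logarithmic) of 14 of the 15 largest rises in TFE3 and of 7 lysosomal, folliculin and autophagy genes that rose, with EV in grey, YAP-TFE3 in blue and TFE3 in red. Asterisks mark genes that differed between TFE3 and YAP-TFE3 at a false discovery rate of 5%; Tspan10, Gpnmb and Rab27a lie below EV in YAP-TFE3 and above it in TFE3.

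The level of some of these genes in the sub-confluent empty vector group (EVsub) is given for reference. In its 3 libraries Igfbp5 had 0, 0.356 and 0.085 CPM, Ptgds 0, 0 and 0.042 CPM and Trim63 0.091, 0.534 and 0.972 CPM. Each lay below its level in confluent EV, and TFE3 lay above it. Rnf43, in contrast, had 1.00, 0.605 and 0.888 CPM in EVsub, overlapping its confluent EV range. Both comparisons share the EV libraries, so no relation between them is drawn. TFE3 and EV were collected at the same labelled density, and any difference in the density the plates reached was not measured.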

How the data were processed

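The deposited values are the authors' raw counts of reads for 39017 Ensembl gene identifiers, not normalized, with one table a library. By the study's methods the reads were processed with bcbio-nextgen and Hisat2 on mm10, the build the labels also name. The methods also name Salmon with tximport for counts per gene. The deposited counts are whole numbers, which program made them is not stated, and the strand setting is not given in the sources used here, so overlapping genes and near-identical paralogs may have shared reads, in either direction. GENCODE M21 (GRCm38) matched 37693 identifiers.

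Groups came from the sample titles, 3 libraries each of 8 groups. For 1 YAP-TFE3 library the description gives another replicate number, and its title was followed. Counts were scaled by TMM and compared in edgeR 4.0.16 under R 4.3.3 with the two-sided quasi-likelihood test with Benjamini-Hochberg adjustment. All 24 libraries entered one fit with a coefficient per group, on the 14361 genes that averaged 5 counts or more. Log2 fold changes, their standard errors and adjusted p-values come from this fit, and p-values measure the spread between these libraries. The named genes were the called members of the lists on the MiT/TFE factors, folliculin and the Rag GTPases and TFE3 targets, the 15 largest rises and falls defined in the report, and up to 3 called genes per direction of each other list. A few genes that met this rule were left out of the text and figures. Any further gene was chosen after its values were seen. The members, lists and tests were chosen with earlier results of these data known. The lists on pigment cells and the circadian clock were drawn up after the values were seen.

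Alternatives were DESeq2 1.42.0, its size factors, other filters on low counts, a block for the replicate number, a fit of the compared groups alone, a log2 limit of 1, and each library left out. On simulated counts with 200 changed genes among 14361 the fit recovered 141 at a log2 change of 1 with 1 false call, and 179 at 2 with 2 false calls. Promoter windows and their sequences came from RefSeq (GRCm38.p6), matched by symbol. Tables and figures were made in Python 3.11.15 (pandas 2.3.3, numpy 2.4.6 and, for figures, matplotlib 3.10.9). The SW872 libraries and the chromatin data were not analysed here.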

Additional observations from a re-analysis of the deposited data

Results flagged for a closer look

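For 9 of the genes described, the effect of TFE3 against EV and that of YAP-TFE3 against EV had opposite signs, each past the threshold, and the direct difference between the proteins passed it too. The EV libraries are shared by both effects, so the direct difference is what was tested. Tspan10 differed by 7.64 on the log2 scale (TFE3 minus YAP-TFE3, adjusted p = 1.26e-08, edgeR) and Gpnmb by 5.08 (adjusted p = 8.67e-11). Rab27a differed by 3.04 (adjusted p = 2.11e-08). Smaller differences in the same direction were seen for Gla (1.69, adjusted p = 6.22e-07), Cry1 (1.66, adjusted p = 1.62e-07), Fnip2 (1.55, adjusted p = 1.55e-07) and Ctns (1.48, adjusted p = 5.93e-08). Gprc5a (-2.29, adjusted p = 1.88e-06) and Fbln5 (-1.50, adjusted p = 3.83e-07) fell in TFE3 and rose in YAP-TFE3.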

How the results depend on the processing

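Against 485 genes called between TFE3 and EV, the 2-group fit called 1525, a log2 limit of 1 left 139, and leaving out a library gave 192 to 286. Of the 485 genes, 150 were called in all 6 fits without a library, 130 of the 339 rises and 20 of the 146 falls. Among the TFE3 targets (10 called) the 2-group fit called 17 and the log2 limit left 4. In the lysosome lists (32 called) these counts were 52 and 1, and 14 to 20 without a library. Sterol synthesis (6 called) had 11 by DESeq2, 19 without a filter on low counts, 15 in the 2-group fit, 2 with the log2 limit and 0 to 9 without a library. Of the 30 largest rises and falls 20 differed between TFE3 and YAP-TFE3, and 11 where every library had to hold at least 10 counts, a filter that removes genes. With the replicate number as a block 455 genes were called, 10 TFE3 targets, 31 lysosomal and 4 sterol genes among them. The numbers do not pair the libraries: deviations of same-numbered TFE3 and EV libraries correlated at -0.017, -0.019 and -0.082. All 69 named genes that were called kept their direction under every alternative, 34 stayed called under all of them and 62 under all but those that leave out a library. Tfeb, not called, ranged from -0.052 (without EV replicate 2) to 0.094 (without EV replicate 1) and was at -0.028 without TFE3 replicate 1. For the other lists 237 of 364 counts stayed within 1.5 times. Where no cause is given, the cause was not tested. With 3 libraries a group, changes can be missed, also those of 1 or more on the log2 scale. On simulated counts 141 of 200 were recovered at 1 and 179 at 2, and smaller changes were not simulated.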

Other observations

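The list of circadian clock genes was drawn up after the values were seen, so its counts are a description only. Of 18 tested, 2 rose and 2 fell, against 2.36 and 1.02% of all genes tested, and 14 were not called, with a median log2 fold change of 0.26. Cry1, a repressor of the clock, had 42.1, 41.6 and 41.3 CPM in TFE3 and 17.7, 22.2 and 19.2 CPM in EV (log2 fold change 1.08, standard error 0.16, adjusted p = 0.000303, edgeR). Bhlhe41, another repressor, had 34.5, 29.5 and 32.5 CPM against 13.4, 16.9 and 13.9 CPM (1.13, standard error 0.22, adjusted p = 0.0054, edgeR). Arntl, which encodes the activator BMAL1, had 14.4, 12.5 and 12.8 CPM against 24.2, 22.3 and 23.8 CPM and fell by 0.83 in log2 units (adjusted p = 0.0012, edgeR). None of these genes overlapped between groups, and each stayed called without EV replicate 2. Nfil3, a repressor of clock output genes, fell by 0.93 (adjusted p = 0.0187, edgeR) and missed the threshold without that library (adjusted p = 0.102). Nr1d1, which represses Arntl, had 52.3, 53.1 and 45.5 CPM against 20.8, 24.2 and 24.3 CPM, missed the threshold over all libraries (adjusted p = 0.238, edgeR) and passed it with the 6 libraries alone (adjusted p = 0.000192, edgeR). The time of day of collection is not given in the sources used here, and its part was not tested.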
